A study of Homo sapiens with 13 samples.

Results

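The regions described here carried trimethylation of histone H3 lysine 4 (H3K4me3) at the end of a coding gene and had no region of H3K27 acetylation (H3K27ac) over them. They were chosen by 4 criteria applied to the authors' peak lists. The H3K4me3 region held a peak in both libraries, was under 3000 bp wide, lay within 1 kb of either end of a RefSeq coding gene, and met no H3K27ac region found in both H3K27ac libraries. Of 15638 H3K4me3 regions found in both libraries on chromosomes 1 to 22 and X, 3967 (25.4%) qualified, and they are called unacetylated gene-end regions below. The narrow gene-end regions that did meet H3K27ac, 6651 in number, are called acetylated counterparts, and 2022 narrow regions without H3K27ac lay away from coding gene ends.

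All libraries came from PANC1, a human line of pancreatic ductal carcinoma, in a stable derivative that overexpresses BRG1 (BRG oe in the labels). BRG1, encoded by SMARCA4, is the ATPase subunit of the SWI/SNF chromatin remodeling complex. CUT&RUN, in which a nuclease tethered to an antibody releases the bound fragments, was performed on mildly crosslinked cells on the histone marks H3K4me3, H3K27ac and H3K4me1, on BRG1 and its partner subunit SMARCC1, and on the transcription factor NRF2, in 2 replicates of each, 12 libraries in all. There was 1 condition, with no line lacking the BRG1 construct, so nothing below compares BRG1 levels. The labels do not say whether the replicates were separate cultures, which promoter drove BRG1, or whether the line was a single clone, and the IgG library was not used here.

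H3K4me3 is deposited at gene starts by the SET1 and MLL methyltransferase complexes, which are drawn to unmethylated CpG-rich DNA through CxxC-type proteins. H3K27ac is placed by p300 and CBP and accompanies active promoters and enhancers, so a CpG-rich promoter can hold H3K4me3 with little H3K27ac. In stem cells many developmental promoters carry H3K4me3 together with the repressive H3K27me3 mark, which was not among the targets of this study.

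CpG richness, counted in promoter windows and not in the regions themselves, was common to most promoters at these regions. Other sequence features were common to some groups of genes. The promoters printed here are examples of 3 such features. They run from 150 bases before the RefSeq start (GRCh38.p14) up to it, 5′ to 3′ on the gene's strand. In the first set the capitals mark CpG dinucleotides. L3MBTL3 (chr6:130018431-130018580, plus strand) had the strongest unacetylated region and MSX2 (chr5:174724432-174724581, plus strand) the strongest one at a homeobox gene. ALB, the liver albumin gene (chr4:73404137-73404286, plus strand), is shown for contrast as a gene without H3K4me3 at its ends.
L3MBTL3: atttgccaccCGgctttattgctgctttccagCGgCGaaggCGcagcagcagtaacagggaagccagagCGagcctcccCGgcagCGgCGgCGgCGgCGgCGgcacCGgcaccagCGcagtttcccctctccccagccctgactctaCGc
MSX2: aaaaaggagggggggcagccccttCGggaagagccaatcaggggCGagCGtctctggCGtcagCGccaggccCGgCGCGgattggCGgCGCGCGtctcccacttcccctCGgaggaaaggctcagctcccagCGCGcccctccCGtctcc
ALB: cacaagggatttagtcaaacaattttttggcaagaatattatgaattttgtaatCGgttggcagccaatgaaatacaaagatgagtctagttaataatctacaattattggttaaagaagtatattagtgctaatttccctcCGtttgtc
These stretches held 15 CpGs at L3MBTL3, 16 at MSX2 and 2 at ALB.

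In the second set the capitals mark the ETS core CCGGAAG on either strand, the element bound by ETS family factors, at 3 genes of C2H2 zinc finger proteins with strong unacetylated regions. The genes are ZNF256 (chr19:57947707-57947856, minus strand), ZNF776 (chr19:57746665-57746814, plus strand) and ZNF3 (chr7:100081724-100081873, minus strand). At ZNF256 the matches on the 2 strands overlap.
ZNF256: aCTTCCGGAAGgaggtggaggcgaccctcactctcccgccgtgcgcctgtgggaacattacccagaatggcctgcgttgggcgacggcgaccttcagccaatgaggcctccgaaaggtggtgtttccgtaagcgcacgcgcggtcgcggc
ZNF776: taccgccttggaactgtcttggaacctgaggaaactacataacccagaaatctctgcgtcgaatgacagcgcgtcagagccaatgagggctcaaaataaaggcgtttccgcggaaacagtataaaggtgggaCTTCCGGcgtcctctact
ZNF3: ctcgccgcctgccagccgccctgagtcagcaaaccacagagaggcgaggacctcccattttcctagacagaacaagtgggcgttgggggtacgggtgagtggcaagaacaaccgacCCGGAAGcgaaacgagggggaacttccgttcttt
These 3 were printed because they carry the element. ZNF205 and RPS19, also looked up for it, had no match in the same stretch, and the shares over all promoters are given with the promoter results.

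In the third set the capitals mark CCAAT boxes on either strand (ATTGG on the reverse) and the TATA box TATAAA, at 3 replication-dependent histone genes. They are H2AC17 (chr6:27893186-27893335, minus strand), H2BC21 (chr1:149886683-149886832, minus strand) and H2AC18 (chr1:149842751-149842900, minus strand). By coordinates these stretches lay wholly (H2AC18) or mostly (H2AC17 and H2BC21) outside the unacetylated regions of these genes.
H2AC17: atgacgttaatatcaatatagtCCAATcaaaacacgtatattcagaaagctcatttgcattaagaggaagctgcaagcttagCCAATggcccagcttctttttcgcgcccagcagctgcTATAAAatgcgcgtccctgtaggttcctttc
H2BC21: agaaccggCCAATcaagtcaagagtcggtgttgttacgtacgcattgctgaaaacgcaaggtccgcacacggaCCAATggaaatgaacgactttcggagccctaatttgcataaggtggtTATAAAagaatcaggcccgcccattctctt
H2AC18: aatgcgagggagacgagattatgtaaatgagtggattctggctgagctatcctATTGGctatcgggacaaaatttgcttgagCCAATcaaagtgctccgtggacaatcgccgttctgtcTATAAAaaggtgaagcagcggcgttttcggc
These 3 were printed because they carry both elements. Of the other histone genes looked up, H3C4 had CCAAT boxes without TATAAA, and H4C5 and H4C16 had neither in this stretch. All printed genes were picked after their values were seen.

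The strength of an H3K4me3 region is given as MACS2 fold enrichment of its highest peak over local background, the authors' own value, averaged over the 2 libraries. Unacetylated gene-end regions were weaker and narrower than their acetylated counterparts. Their median fold enrichment was 6.50 (6.29 in replicate 1 and 6.65 in replicate 2), with quartiles of 4.49 and 10.1 and a range of 1.73 to 37.1. The counterparts had a median of 16.5 (16.2 and 16.7), and unacetylated regions away from gene ends had 4.95. Median widths were 839 bp, 1742 bp and 567 bp in the same order. These values bear on the choice of regions, since H3K4me3 peaks and their width were used in it, and are given as description only.

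Among the 10618 narrow gene-end regions, 37.4% lacked H3K27ac (95% Clopper-Pearson interval 36.4% to 38.3%, which covers counting error only). Built from the replicate 1 libraries alone the share was 38.3%, and from the replicate 2 libraries alone 34.6% (36.5% ± 2.61, SD, n = 2). The share followed H3K4me3 strength closely. With the regions divided into 10 groups of like size by strength, 80.5% of the weakest group, with a median fold enrichment of 3.66, lacked H3K27ac, and 1.51% of the strongest, with a median of 30.3, did. By width the share ran from 81.8% in the narrowest of 10 such groups to 6.12% in the widest.

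**Figure D1:**
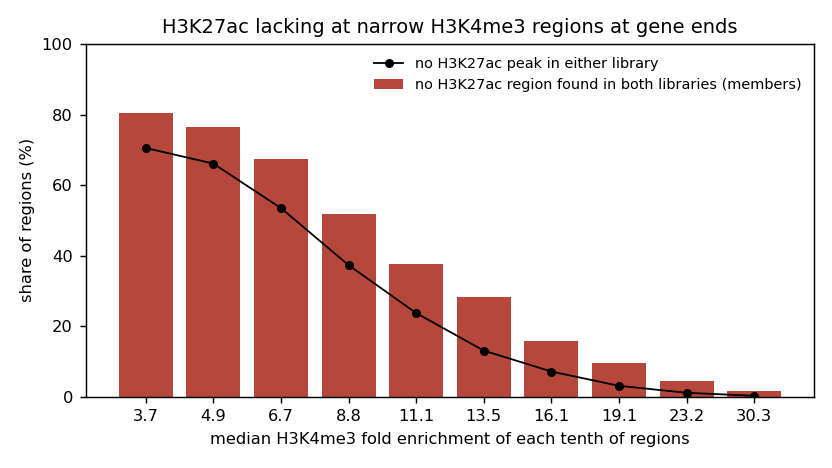
Share of narrow H3K4me3 regions at coding gene ends without H3K27ac (y axis, %), in 10 groups of like size by H3K4me3 fold enrichment (x axis, median of each group). Bars count regions that met no H3K27ac region found in both libraries, from 80.5% to 1.51%, and the line counts regions that met no H3K27ac peak in either library, from 70.5% to 0.282%.

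Lack of H3K27ac here means that no region was called in both libraries, not that acetylation was zero. Single-library H3K27ac peaks met 449 unacetylated regions (11.3%) in replicate 1 and 671 (16.9%) in replicate 2. Either library had one at 1037 regions (26.1%), and 2930 (73.9%) met none in either. At 83 regions (2.09%) both libraries had a peak, but at separate positions that did not merge. The single-library peaks were weak, with a median fold enrichment of 3.18 and 3.19 in the 2 libraries, against 4.28 and 4.35 for the peaks at acetylated counterparts. Of the 3 criteria with a numeric limit, width left 13 regions of 2902 to 2994 bp just inside (median fold 16.1) and 3 of 3005 to 3069 bp just outside (17.7). Distance to a gene end left 56 regions in the last 100 bp inside, the farthest at 996 bp (4.18), and 35 at 1002 to 1099 bp outside (4.50). For overlap, 27 regions lay 1 to 100 bp from H3K27ac (4.64) and 4 gene-end regions overlapped it by 1 to 100 bp (7.22).

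The strongest unacetylated regions were as high as strong acetylated ones. The 12 with the best mean rank had fold enrichments from 24.3 to 37.9 in single libraries. L3MBTL3, a polycomb-related chromatin reader, led with 36.4 in replicate 1 and 37.9 in replicate 2 over 1464 bp (chr6:130018377-130019840), and its nearest H3K27ac region was 307807 bp away. ZNF256 had 29.9 and 35.0, and MTURN, a regulator of neural progenitor differentiation, had 28.9 and 34.3. NOC2L, a ribosome biogenesis factor that also inhibits histone acetyltransferases, had 32.9 and 28.3. Both libraries placed these 4 regions above the upper quartile of the counterparts, 22.7.

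Several of the other leading regions belong to genes used in every cell. RPL26, of the large ribosomal subunit, had 31.9 and 27.6, EIF3F, of a translation initiation factor, 33.1 and 26.8, and COX5B, of cytochrome c oxidase, 24.6 and 28.1. EIF3F lay 135 bp from an H3K27ac region, so its lack of overlap rests on a short gap. The 12 leading regions were completed by DZANK1 with POLR3F, ZNF26, SERTAD3, SDAD1 and C1orf159. Of the 12, only L3MBTL3 and RPL26 met no H3K27ac peak in either library. Counted over all 3967 regions, 26.1% met such a single-library peak.

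The widest regions were those of PHF21B at 2994 bp, CALR at 2981 bp and RPL22L1 at 2955 bp. NSL1 and UXT had the narrowest, at 200 bp each, followed by NAA35 at 203 bp. RBM39 lay nearest to H3K27ac, at 19 bp, with RRAS at 40 bp and KAT5 at 46 bp. The narrow regions were weak, as NSL1 shows with fold enrichments of 4.15 and 2.51. CALR, which encodes the endoplasmic reticulum chaperone calreticulin, had 16.2 and 22.4.

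The regions were mostly promoter regions by position. A known gene start lay within 1 kb of 3199 (80.6%), only a gene stop lay near 66 (1.66%), and 677 (17.1%) were near ends of genes for which the RefSeq table gives no strand. The region covered a start at 1517 (38.2%), against 4418 (66.4%) of the counterparts. Starts of 2 or more genes were near 354 (8.92%) unacetylated regions and 797 (11.98%) counterparts. In all, the regions touched 3942 of 19974 coding genes (19.7%), and 642 genes had more than 1.

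Where a region had exactly 1 known start near it, its side of that start could be read. Of 2729 such unacetylated regions, 1276 (46.8%) covered the start, 704 (25.8%) lay downstream and 749 (27.4%) lay upstream. Of 4714 counterparts, 80.7% covered the start, 11.6% lay downstream and 7.72% upstream. H3K4me3 summits fell downstream of the start at 67.2% of unacetylated regions in each library, and at 87.5% and 87.9% of counterparts. Median fold enrichment was 9.28 for unacetylated regions over the start, 5.85 downstream and 4.58 upstream. Of the 2394 genes at these unacetylated regions, 105 had one on each side of the start. Positions relative to the start were examined after the values were seen and were not tested.

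**Figure D2:**
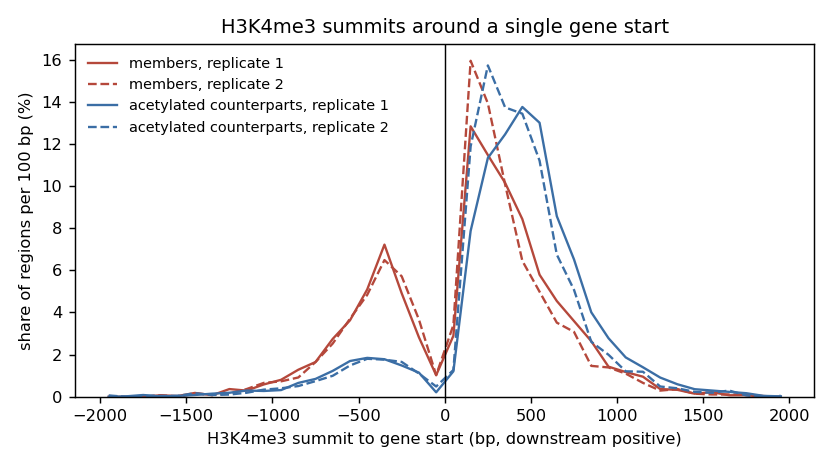
Position of the H3K4me3 summit relative to a single known gene start (x axis, bp, downstream positive) as the share of regions per 100 bp (y axis, %). Red lines are the unacetylated gene-end regions (called members in the key), blue lines the acetylated counterparts, and solid and dashed lines replicates 1 and 2. Unacetylated regions have a second, upstream peak, and 67.2% of their summits lie downstream in each library.

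Many upstream regions were neighbours of acetylated ones. An acetylated H3K4me3 region lay within 1 kb of 869 unacetylated regions (21.9%), with a median fold enrichment of 4.91 and a median width of 559 bp. Of the 597 with a single start, 423 (70.9%) lay upstream of it and 15.1% covered it, so 423 of the 749 upstream regions had such a neighbour. The 3098 regions that stood apart had a median fold enrichment of 7.04, and 55.6% of the 2132 with a single start covered it. RPL26 had 2 unacetylated regions, its leading one and a second one at 10.2 and 9.81, 178 bp from the gene start. An acetylated H3K4me3 region also lay within 1 kb of an end of RPL26. NOC2L and KLHL17, which share a start area, likewise had 2 regions, the second at 9.76 and 12.2.

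Gene by gene, 2818 coding genes had an unacetylated region and no acetylated H3K4me3 region at either end, 14.1% of 19974 and 24.5% of the 11505 with any H3K4me3 region at an end. A further 1124 had both kinds and 7517 had only acetylated or broad acetylated regions. H3K27ac lay somewhere within the gene span of 13.2% of the 2818 and of 11.7% of the 8469 genes with no H3K4me3 region at an end. It lay within 94.6% of the 7517, a contrast that the choice of regions by H3K27ac largely fixes. The share of 24.5% is the level against which the following lists are read, and the lists are described by counts without a test because the choice of regions used the same peaks. The lists were built from gene symbols and are in part overlapping. A gene was counted for any region within 1 kb of either end, also one shared with a neighbouring gene or at its stop. NLRP14, counted among blood and immune genes, shared its region with ZNF214, and the keratin gene KRT10 had its region at its stop.

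Developmental genes with H3K4me3 had a share above the overall 24.5%. The lists were not compared at like H3K4me3 strength, which the share without H3K27ac followed closely. Median fold enrichment at genes with unacetylated regions alone was 5.78 for developmental, 6.87 for tissue-specific and 9.72 for housekeeping lists. For all coding genes with such regions alone it was 8.04. The part of strength in the list shares was not tested. Over 403 genes of developmental lists, 162 (40.2%) had H3K4me3 at an end, against 57.6% of all coding genes, and 66 of these (40.7%, Clopper-Pearson interval 33.1% to 48.7%) had unacetylated regions alone. Developmental basic helix-loop-helix genes stood at 12 of 15, WNT ligands at 5 of 7, BMP and GDF ligands at 6 of 10 and homeobox genes outside the HOX clusters at 25 of 48. HOX genes went the other way, at 3 of 24, and forkhead genes were near the overall share at 6 of 27. T-box genes stood at 3 of 8, SOX at 2 of 9, the GATA, ZIC, GLI and SALL genes at 3 of 9, FGF ligands at 1 of 4 and PAX at 0 of 1.

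Among homeobox genes MSX2, a regulator of craniofacial and limb development, had by far the strongest region (22.5 and 24.4 in replicates 1 and 2; 23.5 ± 1.38, SD, n = 2). EN2, an engrailed factor of midbrain and cerebellum, had 14.8 and 18.4, and MNX1, a factor of motor neurons and the early pancreas, had 10.6 and 11.6. The remaining homeobox genes were lower in both libraries than MSX2, with NKX6-1, a beta cell factor, at 8.24 and 8.96. The 3 HOX genes were HOXA11 (9.92 and 11.1), HOXD1 (8.87 and 9.11) and HOXA13 (8.88 and 7.36).

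HES7, a Notch-driven oscillator of somite formation, had 15.5 and 12.7. TWIST2, a mesenchymal bHLH factor, had 11.3 and 14.5, and ATOH8 had 13.0 and 12.2. FOXD3, a neural crest factor, had 11.9 and 13.0. GATA6, a factor of endoderm and pancreas development, had 8.51 and 8.68. Its nearest H3K27ac region was 296016 bp away. These transcription factor genes thus had moderate, reproducible H3K4me3, with libraries that differed by less than the gap to MSX2.

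Of the secreted ligands, BMP6 had 8.77 in replicate 1 and 18.2 in replicate 2, a spread (13.5 ± 6.69, SD, n = 2) that leaves its level uncertain. GDF11 was closer at 10.6 and 12.1. WNT9A had 9.21 and 6.84, and WNT2 3.57 and 3.15, so the WNT regions ranged from moderate to weak. SOX2, a pluripotency and neural factor, was also weak at 4.25 and 3.92.

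The lists called tissue-specific gave a like share. Membership rests on gene symbols and not on where a gene is expressed, which was not measured here. Over 1469 genes of tissue-specific lists, 228 (15.5%) had H3K4me3 at an end, and 93 of these (40.8%, 34.3% to 47.5%) had unacetylated regions alone. Clustered protocadherins, which give neurons distinct surface identities, stood at 5 of 6, synaptic genes at 10 of 19, voltage-gated channels at 10 of 20, neurotransmitter receptors at 9 of 18 and axon guidance genes at 15 of 33. All 5 of the protocadherin genes had H3K27ac somewhere within the gene span, against 13.2% of all genes with unacetylated regions alone. Genes of the same cluster may share a stretch of H3K27ac, so these 5 are not separate observations. Blood and immune genes stood at 20 of 51, receptors named GPR at 11 of 32, liver, muscle and eye genes at 3 of 10, germline genes at 8 of 32 and keratins at 1 of 5. Olfactory receptors had a region at 1 gene of 390, OR1F1 (8.91 and 9.17). The pancreatic acinar and endocrine list had H3K4me3 at 1 of 47 genes, and it was not unacetylated.

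CHRNA5, a nicotinic acetylcholine receptor subunit, led the neurotransmitter receptors with 16.9 and 14.9. SYT1, the calcium sensor of synaptic vesicle release, had 15.5 and 11.5, and SCN8A, a neuronal sodium channel, 14.0 and 12.2. The axon guidance ligand EFNB1 had 16.4 and 17.7. The protocadherins were lower, from PCDHGC3 at 7.03 and 8.01 to PCDHA12 at 3.76 and 2.68. CRYBA4, a lens crystallin, had 11.2 and 14.0, CXCL3, a neutrophil chemokine, 10.7 and 9.55, and PRAME, a cancer-testis antigen, 10.2 and 9.46. CHRNA5, SYT1, SCN8A and EFNB1 thus had higher values than CXCL3 and PRAME in both libraries, and the protocadherins lower ones.

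**Figure D3:**
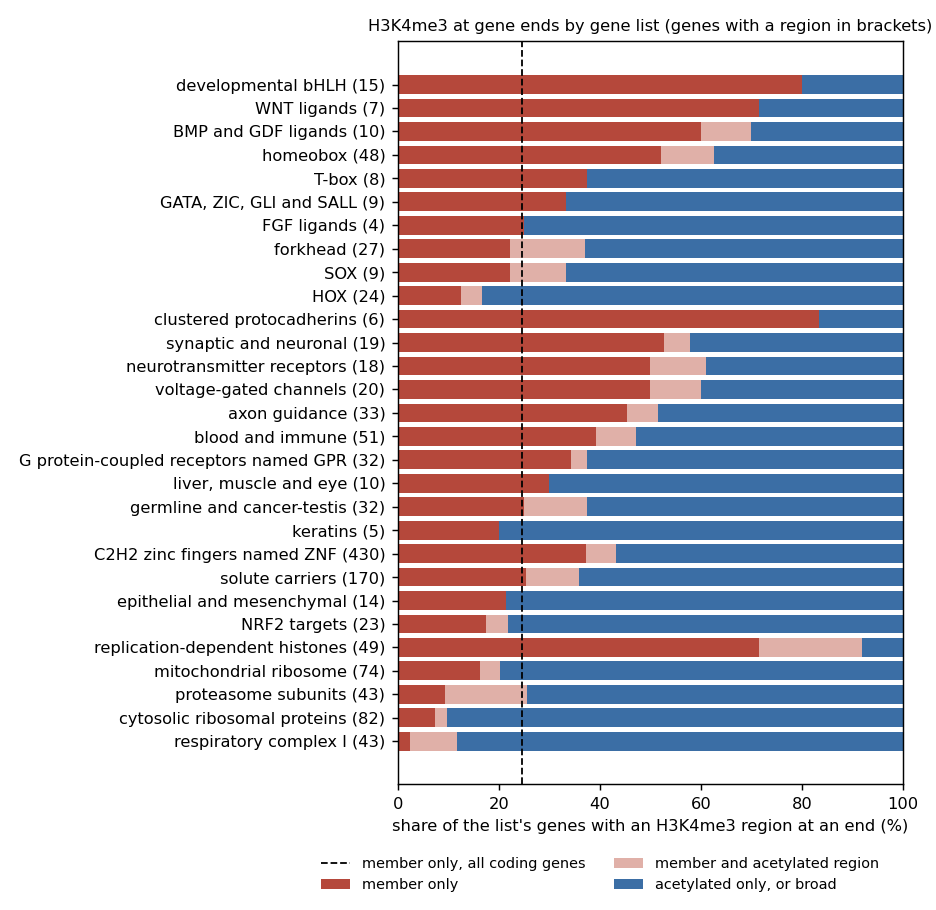
Genes of each list by kind of H3K4me3 region at their ends (x axis, % of the list's genes with such a region, whose number is in brackets). Red is unacetylated regions alone (member only), pink unacetylated and acetylated regions, blue acetylated or broad regions alone, and the dashed line is the 24.5% of all coding genes. Developmental bHLH genes (12 of 15), protocadherins (5 of 6) and histones (35 of 49) reach far past the line, and ribosomal protein genes (6 of 82) stay short of it.

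Housekeeping lists as a whole stood near the overall share, at 58 of 291 genes (19.9%, 15.5% to 24.99%, an interval that holds 24.5%), and replication-dependent histones supplied 35 of the 58. The other lists had lower counts, with cytosolic ribosomal proteins at 6 of 82, the mitochondrial ribosome at 12 of 74, the proteasome at 4 of 43 and respiratory complex I at 1 of 43. The strongest exception of each of these lists was high. RPS19 had 23.2 and 20.8 and MRPL38 18.3 and 15.0. NDUFAB1, an acyl carrier protein of mitochondria, had 16.7 and 16.4, and PSMB3, a proteasome beta subunit, 14.7 and 16.6. Not all exceptions were strong, as MRPL45 shows at 5.70 and 4.64 and MRPL48 at 4.06 and 5.73.

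Histone genes, which make the core histones needed in S phase, held 37 unacetylated regions, 30 of them on chromosome 6 and 6 on chromosome 1. Their median fold enrichment was 5.54. The region at H2AC18 and H4C15 had 21.3 in replicate 1 and 10.1 in replicate 2, and that at H2AC17 and H2BC17 13.3 and 10.2. The region at H2BC21, H2AC20 and H2AC21 had 10.2 and 8.50. The libraries thus differed most at the highest of these regions. Histone genes have near-identical copies, and how the authors treated reads that match several is not given in the sources used here, so single values are uncertain.

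Zinc finger genes named ZNF, many of them repressors of transposable elements, had unacetylated regions alone at 160 of 430 genes with H3K4me3. ZNF26 had 28.4 and 28.7, ZNF776 22.0 and 25.6, and ZNF3 21.5 and 22.6, and with ZNF256 the libraries of each differed by less than the distance to the median region. Chromosome 19, where many of these genes cluster, had the highest share of unacetylated regions of any chromosome, 50.9% of its narrow gene-end regions, against a low of 27.5% on chromosome 5. Split by position, zinc fingers on chromosome 19 stood at 82 of 192 (42.7%, 35.6% to 50.03%) and those on other chromosomes at 78 of 238 (32.8%, 26.8% to 39.1%). Other genes on chromosome 19 stood at 247 of 633 (39.0%) and other genes elsewhere at 2411 of 10442 (23.1%), so on chromosome 19 the other genes, too, stood above 24.5%.

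Of 32 NRF2 target genes, which encode antioxidant and detoxification proteins, 23 had H3K4me3 and 4 had unacetylated regions alone. MAFG, a small MAF partner of NRF2, had 13.2 and 18.99 in a region shared with SIRT7. SLC7A11, the cystine transporter, had 14.5 and 11.2, FTL, the ferritin light chain, 9.45 and 9.77, and OSGIN1 6.59 and 6.77. FTL lay 525 bp from H3K27ac and SLC7A11 184816 bp from it, so these 4 were not alike in their surroundings. NQO1, HMOX1 and SRXN1 had acetylated regions only. Solute carriers stood at 43 of 170 and epithelial and mesenchymal genes at 3 of 14 (TWIST2, FN1 and EPCAM), with FN1 at 5.33 and 3.89 and EPCAM at 2.85 and 4.80.

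**Figure D4:**
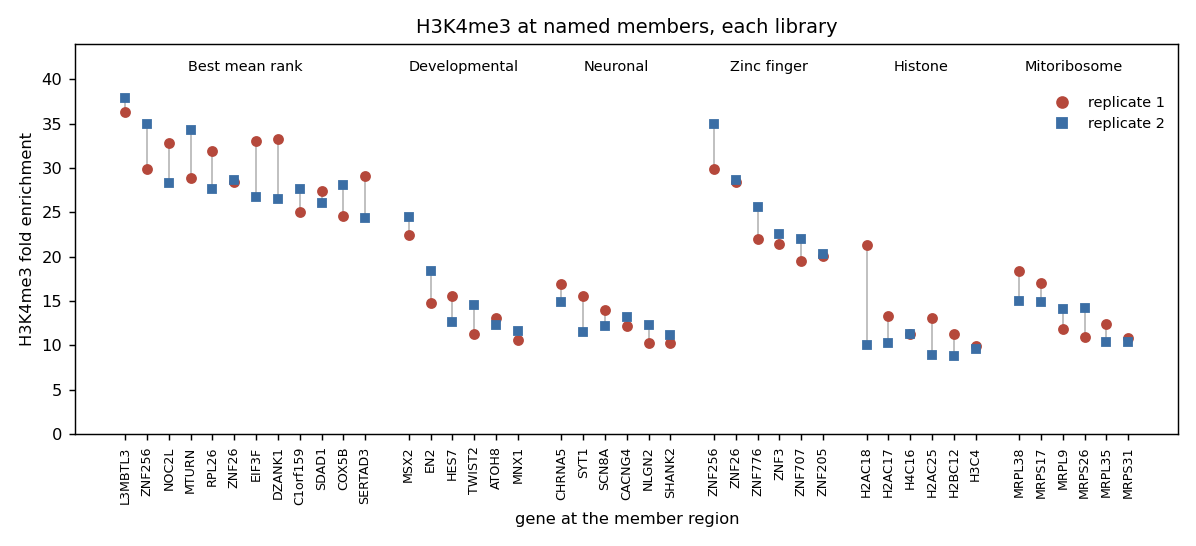
H3K4me3 fold enrichment (y axis) at unacetylated gene-end regions of named genes (x axis), with 1 point per library (red circles replicate 1, blue squares replicate 2) joined by a line. The leading 12 regions lie between 24.3 and 37.9, MSX2 at 22.5 and 24.4, and H2AC18 shows a wide gap between libraries, 21.3 and 10.1.

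Regions that touched only a gene stop were few but included strong ones. HSPA1A, an inducible heat shock chaperone, had a region of 26.5 and 25.1 at its stop and one of 10.4 and 11.6 at its start, shared with HSPA1L. HSPA1B had 25.4 and 22.0 at its stop. These neighbours are near-identical, so their reads may not be separable. KRT10, a keratin of differentiated epidermis, had 19.9 and 15.6 at its stop. Of the 66 regions, the median fold enrichment was 5.004, and 13 lay at genes shorter than 3 kb.

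Of the line's own markers, SMARCA4 alone had an unacetylated region, of 5.38 and 9.63, beside an acetylated one. KRT8, KRT18, KRT19, VIM, CD44 and TGFBI had acetylated H3K4me3 only, and KRT7 had no H3K4me3 region at an end. All 16 markers of blood, acinar, endocrine, fibroblast, liver and endothelial cells were without H3K4me3 at their ends, PTPRC and PDGFRB with H3K27ac within the gene.

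The 4 targets that the choice did not use were compared by overlap of at least 1 bp with regions found in both libraries of the target. Each test was an exact conditional Cochran-Mantel-Haenszel test, two-sided, over 25 strata of region width and H3K4me3 fold enrichment, with p-values adjusted by Benjamini-Hochberg over 7 tests. It sets regions against regions in these libraries, and regions are not replicates of a condition.

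BRG1 and SMARCC1, a core subunit of the same complex, were nearly missing from the unacetylated regions. Both were scarce at H3K4me3 regions of every kind. BRG1 had 3213 and 6610 peaks in its libraries and 2039 regions found in both. SMARCC1 had 600 and 572 peaks and 169 such regions, so its counts could only be small. BRG1 met 1 of 3967 (0.0252%) against 59 of 6651 counterparts (0.887%), with 0.716% over all 15638 H3K4me3 regions. The odds ratio was 0.0441 (95% interval 0.00102 to 0.298, adjusted p = 6.7e-05, exact test). Single libraries gave 8 and 35 unacetylated regions against 133 and 348 counterparts. The odds ratio moved to 0.246 on BRG1 replicate 2 alone and 0.194 on replicate 1 alone, both still past the threshold of 0.05. The 1 region lay at MSMO1, an enzyme of cholesterol synthesis (chr4:165327000-165329050; 10.1 and 8.77), and met an H3K27ac peak in each single library.

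SMARCC1 met 0 of 3967, which allows a share of up to 0.0756% (3 counts of the total), against 39 counterparts (0.586%) and 0.352% of all H3K4me3 regions. The odds ratio was 0 with an upper bound of 0.242 (adjusted p = 6.7e-05, exact test). Single libraries gave 3 and 4 regions against 114 and 97, and the odds ratio was 0.0979 without SMARCC1 replicate 1 and 0.0567 without replicate 2. Against unacetylated regions away from gene ends, BRG1 met 1 against 2 of 2022, an odds ratio of 0.100 (0.00170 to 1.94, adjusted p = 0.0875, exact test), so no difference could be shown. This moved with single libraries, to 0.0832 without H3K4me3 replicate 1 and 0 without H3K27ac replicate 2 (adjusted p = 0.0441 and 0.0336, exact test), and to 0.913 without BRG1 replicate 1. SMARCC1 met 0 of both, and no test was possible. H3K27ac was not held constant in the comparison with counterparts, so the factor difference and the acetylation difference cannot be told apart there.

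NRF2 at unacetylated gene-end regions was almost confined to transfer RNA genes, which RNA polymerase III transcribes. It met 16 (0.403%, with 0.953% over all H3K4me3 regions), and 15 of the 16 lay within 1 kb of a tRNA gene. This was not particular to them. Of all H3K4me3 regions that met NRF2, 129 of 149 lay at tRNA genes, and of such counterparts 9 of 14 did. Single libraries gave 33 and 16 unacetylated gene-end regions, against 80 and 26 counterparts. The 15 at tRNA genes included regions at NCOA7 (10.8 and 11.5), PSMB3 (10.9 and 9.98), RNASE4 with ANG (8.74 and 8.65) and H4C8 (6.64 and 7.90). The exception was FZD1, a Wnt receptor, at 4.54 and 3.76. PSMB3 therefore had a tRNA-side region with NRF2 and a separate, stronger region over its own start.

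Counterparts met NRF2 at 14 (0.210%), an odds ratio of 1.34 (0.497 to 3.84, adjusted p = 0.649, exact test), and the direction turned under 6 alternatives, to 0.634 when regions at tRNA genes were left out. Away from gene ends NRF2 met 107 of 2022 (5.29%), 99 of them at tRNA genes, and the odds ratio of gene-end regions was 0.0681 (0.0371 to 0.117, adjusted p = 3.7e-34, exact test). Regions near a tRNA gene made up 0.882% of the unacetylated gene-end regions and 7.17% of those away from ends. Without them the NRF2 counts were 1 of 3932 and 8 of 1877, an odds ratio of 0.0594 (0.00133 to 0.454, adjusted p = 0.00208, exact test).

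H3K4me1, the mark of enhancers and promoter flanks, met 83 unacetylated gene-end regions (2.09%, 1.67% to 2.59%), with 3.43% over all H3K4me3 regions. Single libraries gave 137 and 103 (3.02% ± 0.606, SD, n = 2). Counterparts met it at 234 (3.52%; 5.30% ± 0.585, SD, n = 2, in single libraries), an odds ratio of 0.696 (0.501 to 0.960, adjusted p = 0.0341, exact test). Unacetylated regions away from ends met it at 64 (3.17%), an odds ratio of 0.641 (0.448 to 0.920, adjusted p = 0.0235, exact test). Neither call was firm. Without H3K27ac replicate 1 the odds ratios were 0.828 and 0.754 (adjusted p = 0.342 and 0.243, exact test), and with no H3K27ac peak in either library 0.756 and 0.802 (0.225 and 0.348). Without H3K4me3 replicate 1 the comparison away from ends was also lost, at 0.775 (0.138).

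Proximity to acetylated regions moved with the H3K4me1 counts. Of the 869 unacetylated regions beside an acetylated H3K4me3 region 2 met H3K4me1 (0.230%), and of the 3098 apart 81 did (2.61%). With the 869 left out, an alternative chosen after seeing the data, the odds ratios were 0.788 and 0.848 (adjusted p = 0.179 and 0.424, exact test). The strongest regions with H3K4me1 were at POLR1F, a subunit of RNA polymerase I (21.1 and 19.7), ADNP2 (20.2 and 20.7), ZNF205 (20.0 and 20.4), NUS1 (13.5 and 26.9), FBRSL1 (16.8 and 18.2) and FUCA1, a lysosomal fucosidase (12.9 and 15.3). They were well above the median region in both libraries, and NUS1 differed most between them.

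Promoter sequence was compared over RefSeq promoters of 300 bases, 250 before to 50 after the start, which were present for 15812 of 19974 coding genes (79.2%). The 2220 promoters at unacetylated regions were close in CpG content to those of acetylated ones. They held a median of 26 CpGs, with a ratio of observed to expected CpG of 0.840, against 27 and 0.863 for 5026 counterpart promoters. Promoters with no H3K4me3 region within 1 kb, 6290 in number, held 6 CpGs with a ratio of 0.325. Promoters with fewer than 6 CpGs were 1.80% of the unacetylated group, 1.89% of counterparts and 46.2% of those without H3K4me3. L3MBTL3 (23 CpGs) and MSX2 (24) were typical of the unacetylated group by this count, and ALB had 4.

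**Figure D5:**
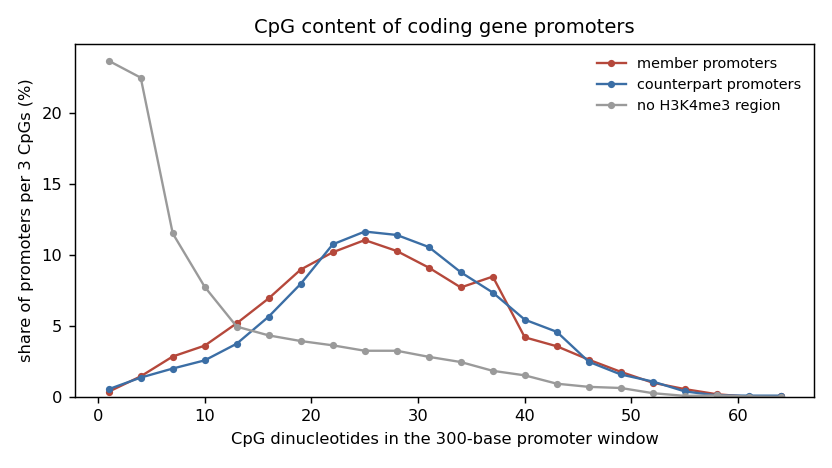
CpG dinucleotides in 300-base promoter windows (x axis) as the share of promoters per 3 CpGs (y axis, %) for unacetylated gene-end regions (red), acetylated counterparts (blue) and genes with no H3K4me3 region within 1 kb (grey). Red and blue lie close together, with medians of 26 and 27, and grey is highest at the lowest CpG counts, with a median of 6.

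The ETS core CCGGAAG, on either strand, was present in 15.8% of unacetylated promoters, 25.1% of counterparts, 3.16% of promoters without H3K4me3 and 14.2% of all promoters. Within the unacetylated group it was present in 27.04% of the 551 promoters with the strongest H3K4me3 and 8.53% of the 551 with the weakest. Zinc finger promoters had it at 44.4%, among them ZNF256, ZNF776 and ZNF3 printed above, and most had no match. ZNF205 had none within 150 bases before its start. The element of NRF1, a regulator of nuclear genes for mitochondria, followed the same order, at 8.96%, 14.8%, 1.89% and 8.59%, and so did the YY1 element AAGATGGC, at 4.64%, 6.78%, 1.02% and 3.91%. A match is a string of letters and not a bound site.

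The CCAAT box was present in 41.3% of unacetylated promoters, 34.5% of counterparts and 36.3% of all promoters. The TATA box TATAAA was present in 5.77%, 4.18% and 9.64%. Among the 53 unacetylated promoters of housekeeping lists, which are mostly histone genes, 66.0% held a CCAAT box and 47.2% a TATA box. H2AC17, H2BC21 and H2AC18 are examples with both, and H4C5 and H4C16 had neither within 150 bases before the start. The antioxidant response element core TGACNNNGC, part of the site that NRF2 binds, was in 14.5%, 15.3% and 14.3%, so the groups were close to each other. The other motifs searched on both strands were also close between unacetylated promoters and counterparts. The GC box GGGCGG was in 74.96% and 73.8%, the E-box CACGTG in 10.5% and 10.3%, TEAD GGAATG in 10.7% and 9.63%, AP-1 TGANTCA in 3.78% and 3.68%, CRE TGACGTCA in 3.56% and 3.24% and the GATA factor site AGATAAG in 1.26% and 0.915%. The 49 unacetylated promoters of developmental lists held a median of 30 CpGs, above the 26 of the unacetylated group as a whole. Their share with an ETS core was 8.16%, below the 15.8% of that group and near the 8.53% of its promoters with the weakest H3K4me3.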

How the data were processed

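CUT&RUN peak lists of 12 libraries (2 replicates of 6 targets) were used. Per the submitters' processing notes, reads were processed on GRCh38 with MACS2 2.2.7.1, Picard 2.23.9, Bowtie2 2.4.1 and SAMtools 1.9 (order of use not given). The deposited values are fold enrichment (a ratio to local background), a −log10 p, a −log10 q and an integer score per peak, of which the score was not used. Peaks were listed per library by the authors, with −log10 p above 2 and 17752 to 18789 H3K4me3 and 32294 to 32499 H3K27ac peaks. Read depth and the control used in calling are not given in the sources used here, so no threshold can be tied to depth.

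Overlapping or touching peaks of both replicates were merged, and a region needed a peak from each. Regions were compared with Python 3.11.15, pandas 2.3.3 and R 4.3.3 (exact conditional Cochran-Mantel-Haenszel tests, checked on simulated data), adjusted over 7 tests. Gene ends, strands, tRNA genes and promoters came from RefSeq GRCh38.p14 tables. The regions, gene lists, motifs and tests were chosen with earlier results of these data known. Named genes are the 12 best-ranked regions, up to 6 holding each target, up to 6 per list and per multiple-region class, and the widest, narrowest and nearest to H3K27ac. A gene that this rule names is not reported here. Positions around starts, neighbouring acetylated regions, chromosome 19, histone regions and gene stops were examined after values were seen.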

Additional observations from a re-analysis of the deposited data

How the results depend on the processing

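The BRG1 and SMARCC1 differences from acetylated counterparts kept their direction and side of the threshold in all 21 alternatives each. So did the NRF2 difference from regions away from gene ends. When 1 library was left out, the ranges were 0 to 0.246, 0 to 0.0979 and 0.0532 to 0.101 in this order. With peaks of either replicate BRG1 reached 0.257 (42 of 3967 against 420 of 6651) and NRF2 0.103. With the q limit described next, SMARCC1 reached 0.153 (20 of 7947 against 17 of 745). Requiring −log10 q of at least 5 for the histone marks gave 7947 unacetylated gene-end regions in place of 3967, with 745 counterparts, and leaving out 1 library gave 3298 to 5321. That limit was raised for all 3 marks at once, so the part of H3K27ac alone was not tested. H3K4me1 against counterparts lost its call with that q limit, at an odds ratio of 0 with an interval of 0 to 13.8. It then met 0 of 7947 against 1 of 745, too few to compare. The call was also lost at 0.756 with no H3K27ac peak in either library and 0.691 with a width limit of 2000 bp. With regions beside acetylated ones left out (added after seeing the data) it was lost at 0.788. Leaving out 1 library gave 0.614 to 0.828. Away from ends H3K4me1 lost its call at 0.802 with no H3K27ac peak in either library. It also did at 0.848 with regions beside acetylated ones left out, and leaving out 1 library gave 0.509 to 0.775. NRF2 against counterparts, not past the threshold in any setting, reversed to 0.32 (q limit), 0.681 (peaks of either replicate), 0.634 (tRNA genes left out) and 0.782 (replicate block), and to 0.982 and 0.71 without NRF2 replicate 1 or 2, with 0.71 to 1.54 when 1 library was left out. BRG1 away from ends passed the threshold at 0.0832 without H3K4me3 replicate 1 and at 0 without H3K27ac replicate 2, with 0 to 0.913 when 1 library was left out. The cause of these changes was not tested. The replicate numbers are shared across targets in the labels only, and the replicate block, which gave 0.173 for BRG1, 0.0691 for SMARCC1 and 0.695 for H3K4me1 against counterparts, changed no other call. Depth is unknown, so a missing peak cannot be told apart from a shallow library.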
